A study of Homo sapiens with 12 samples.

Results

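MiR-484 (hsa-miR-484) is 1 of the 1494 miRNA names listed for both cell lines of this series, and 1 of 1971 listed in either line. It was chosen by name, as a miRNA whose precursor is a capped transcript made without DROSHA, and with its values in these libraries already known. Its levels are therefore given as a description with no test, and the values that led to its choice support nothing by themselves. The study asked how DICER handles its double-stranded RNA substrates, and read small RNA by AQ-seq, a library protocol built to lessen ligation bias, from 100 µg of total RNA. The cells were HCT116, from a human colorectal carcinoma, and HEK293T, from human embryonic kidney and carrying the SV40 large T antigen. Both were rescued with the same 3 DICER forms: WT, a form without its double-stranded RNA-binding domain (ΔdsRBD in the labels, dsRBD deletion here), and a form named AA. The labels do not say what AA changes, how the endogenous DICER was removed, how much of each form the cells held, or whether the lines are single clones. Each of the 6 groups has 2 libraries, 12 in all, and nothing says whether they came from separate cultures, so the spread given here, and any p-value, may be technical. In bulk RNA, fewer cells that hold a miRNA and less of it per cell cannot be told apart.

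Most human miRNAs are cut from a long primary transcript by the nuclease DROSHA, exported as a short hairpin, and cut again by DICER near the loop into a duplex. A few hairpins skip DROSHA. Their transcripts are described as starting at or near the base of the hairpin and keeping the cap of RNA polymerase II. The hairpin is exported by exportin 1 and cut by DICER without an earlier DROSHA cut. MiR-484 and miR-320a are the best-known human cases, and miR-484 has been studied as a repressor of the mitochondrial fission factor FIS1.

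The mature miR-484 sequence is shown first because every value below counts reads of it, and miR-3155a because it is the other listed name with the same seed. The next 3 lines are miRNAs whose levels followed miR-484 most closely, by a measure given below, among those with a sequence to print here. MiR-320b stands for the family of miR-320a, and the sources used here do not show whether its own precursor is capped. Sequences are from RefSeq on GRCh38.p14, 5′ to 3′, with the seed (bases 2 to 8), the part that pairs with targets, in capitals.
miR-484: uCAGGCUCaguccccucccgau
miR-3155a: cCAGGCUCugcagugggaacu
miR-99b-5p: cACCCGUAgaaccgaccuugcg
let-7e-5p: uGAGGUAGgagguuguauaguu
miR-3615: uCUCUCGGcuccucgcggcuc
miR-320b: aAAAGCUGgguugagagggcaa

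The 7 seed bases of miR-484 were shared by miR-3155a and by no other of the 1737 listed names that matched a sequence. MiR-3155a, from an intron of PFKFB3, was nearly absent: HCT116 held 20 reads of it and HEK293T 23 over all 6 libraries of the line, and it passed no filter on low counts. Among 2369 other mature sequences in the RefSeq table, the nearest to miR-484 differed from it by 6 edits, counted as substituted, inserted or missing bases. MiR-484 came from 1 locus in that table. The treatment of reads matching more than 1 name is not stated in the sources used here.

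MIR484 lies on chromosome 16, plus strand, 15643294 to 15643372, and the mature miRNA at 15643301 to 15643322 (GRCh38). In GENCODE 29 the hairpin is inside the untranslated first exon of NDE1, a gene for a centrosome and spindle protein (transcript NDE1-202, exon 15643267 to 15643927). The hairpin begins 27 bases, and the mature miRNA 34 bases, after the annotated start of that transcript. The annotated start is thus not at the base of the hairpin, and the start of the miR-484 precursor was not read here. Mature miR-484 takes bases 8 to 29 of the 79-base hairpin, so it comes from the 5′ arm and its 3′ end is the end on the loop side. In the minimum free energy fold computed by RNAfold (−32.5 kcal/mol), 15 of its 22 bases were paired. Bases 6 to 9 and base 13 were unpaired inside the stem, and bases 21 and 22 were unpaired at its 3′ end. The fold energy per base was −0.411 kcal/mol against a median of −0.452 over 1408 hairpins of the RefSeq table, and 36.3% of them were weaker. The mature sequence was 63.6% G and C, against a median of 52.2% over the matched names.

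With WT DICER, HCT116 held 5365 and 3604 reads of miR-484 and HEK293T 7239 and 6266. The depth was 4498886 and 4056722 miRNA reads in HCT116 and 2791656 and 3552613 in HEK293T. Over all 12 libraries it ran from 824987 to 4498886. The approximate upper 95% limit for a count of 0, 3 reads, thus stood for 0.667 to 3.64 CPM (reads scaled by the library's miRNA total). Scaled by TMM (a library factor that puts the typical miRNA at the same level in every library of a line), the WT levels were 1351 and 1086 CPM in HCT116 and 2566 and 1833 CPM in HEK293T. MiR-484 was thus a moderately abundant miRNA, at place 98 of 795 tested names in HCT116 and 62 of 626 in HEK293T by mean WT level. Its share of all miRNA reads was 0.119% and 0.0888% in HCT116 and 0.259% and 0.176% in HEK293T. Of 8 epithelial and colon marker miRNAs, 7 stood at 10 CPM or more with WT in HCT116 (summed level 5236 to 5248 CPM) and 5 in HEK293T (2024 to 2200 CPM). The highest was miR-200b in HCT116 (1998 CPM) and miR-194 in HEK293T (1122 CPM). By mean of the line, miR-200a-3p and miR-200b-3p had 1611 and 1892 CPM in HCT116 and 3.59 and 5.23 in HEK293T. MiR-192-5p and miR-194-5p went the other way, with 156 and 272 CPM in HCT116 and 901 and 1259 in HEK293T. Of 9 markers of liver, muscle, nerve and blood, 2 reached 10 CPM with WT in HCT116 and 3 in HEK293T. The neural miR-9 led them in both lines, and 1 was at 0 in each.

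**Figure D1:**
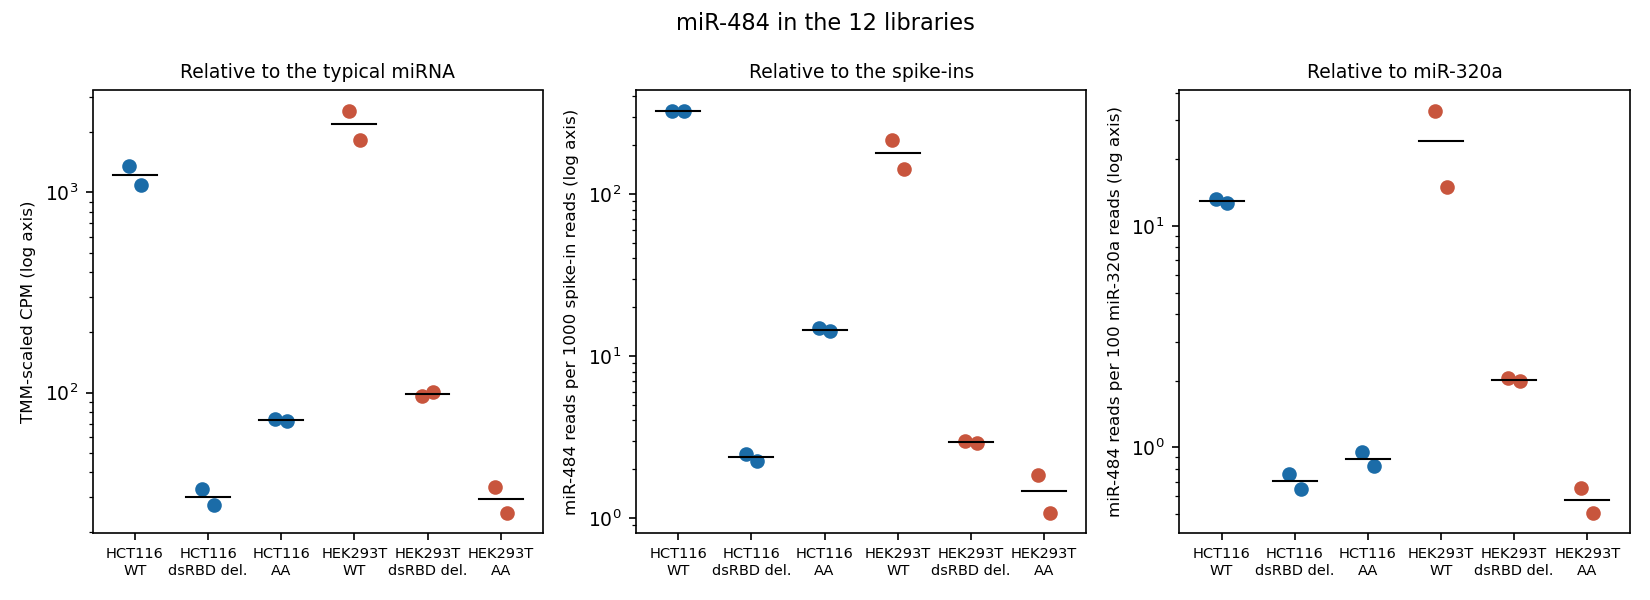
MiR-484 in each of the 12 libraries (points) with group means (lines), in HCT116 (blue) and HEK293T (red), as TMM-scaled CPM, per 1000 spike-in reads and per 100 miR-320a reads, all on log axes. WT lies highest in each line on each scale, with dsRBD deletion lowest in HCT116 and AA lowest in HEK293T.

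MiR-484 stood at 1.34% to 5.97% of its WT level with either altered DICER, and the form with the lower level was not the same in both lines. In HCT116 the dsRBD deletion libraries held 33.1 and 27.3 CPM and the AA libraries 73.4 and 71.9 CPM, against 1351 and 1086 with WT. In HEK293T the deletion libraries held 96.3 and 100.3 CPM and the AA libraries 33.7 and 25.1 CPM, against 2566 and 1833. No 2 groups of a line overlapped. The order was WT, AA, deletion in HCT116 and WT, deletion, AA in HEK293T.

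These low levels rest on few reads. The deletion libraries held 32 and 47 reads in HCT116 and 109 and 131 in HEK293T, and the AA libraries 223 and 245 in HCT116 and 91 and 35 in HEK293T. Before TMM scaling, the smallest of these shares was 24.3 CPM, with an exact (Clopper-Pearson) 95% interval of 16.9 to 33.8, in HEK293T AA replicate 2. HCT116 deletion replicate 1 had 38.8 (26.5 to 54.8) and replicate 2 had 34.7 (25.5 to 46.2). The intervals cover counting error only, since reads made by PCR are not independent molecules. All of these counts are well above 3 reads, so miR-484 was still detected in each library.

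In HCT116 miR-484 went from 1218 ± 188 CPM with WT to 30.2 ± 4.09 CPM with the deletion (mean ± SD, n = 2 each), which is 2.48% of WT. The fitted log2 fold change was −5.36 ± 0.20 (SE). Of the 795 tested names, 34.1% were called lower and 28.1% higher in this comparison by edgeR's quasi-likelihood test, and the median of all names was −0.01. With spike-in size factors, a scale described below, 75.2% were lower and 0.881% higher, so the split of calls depends on the scale. MiR-484 was 1 of many with a strongly negative value, since 21 names lay below it and it held place 22. Of those 21 names, 7 had a mean of at least 100 CPM in the line. The lowest among them were miR-615-3p (−7.69), miR-3200-3p (−7.36), miR-331-3p (−7.20) and miR-574-3p (−6.47). MiR-361-5p, just above miR-484 in WT level at 1276 CPM, had a log2 fold change of −0.01, and miR-1268b, next below at 1204 CPM, had 1.70.

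In HEK293T miR-484 went from 2199 ± 519 CPM with WT to 98.3 ± 2.86 CPM with the deletion (SD, n = 2 each), or 4.47% of WT, a log2 fold change of −4.48 ± 0.24 (SE). Here 39.6% of 626 tested names were called lower and 35.9% higher, with a median of −0.07 (61.7% lower and 9.58% higher with spike-in size factors). MiR-484 held place 49 from the bottom, and 23 names of at least 100 CPM lay below it, led by miR-1180-3p (−7.69), miR-615-3p (−7.58), miR-375 (−6.68) and miR-331-3p (−6.57). MiR-1307-5p, next above miR-484 in WT level at 2344 CPM, stood at −3.98, and miR-361-5p, next below at 2193 CPM, at −1.75.

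With AA miR-484 held place 2 from the bottom in HCT116 and place 1 in HEK293T. In HCT116 it stood at 72.7 ± 1.05 CPM (n = 2), 5.97% of WT, with a log2 fold change of −4.07 ± 0.17 (SE). In this comparison 6.16% of the 795 tested names were called lower and 1.26% higher, and the median was −0.03 (34% lower and 0.252% higher with spike-in size factors). Among the 264 names of at least 100 CPM none had a lower value, and the next were miR-331-3p (−2.15), miR-99b-5p (−2.04) and miR-3200-3p (−1.46). The 1 tested name with a lower value, miR-561-3p (−4.12 ± 0.80), had a mean of 3.54 CPM and is named here after its values were seen.

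In HEK293T, miR-484 stood with AA at 29.4 ± 6.11 CPM (n = 2), 1.34% of WT, with a log2 fold change of −6.19 ± 0.26 (SE). That was the lowest value of all 626 tested names, of which 15.2% were called lower and 6.23% higher, with a median of −0.11 (30.4% lower and 1.28% higher with spike-in size factors). The next names of at least 100 CPM were miR-99b-5p (−4.29), miR-331-3p (−3.56) and let-7e-5p (−3.55).

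**Figure D2:**
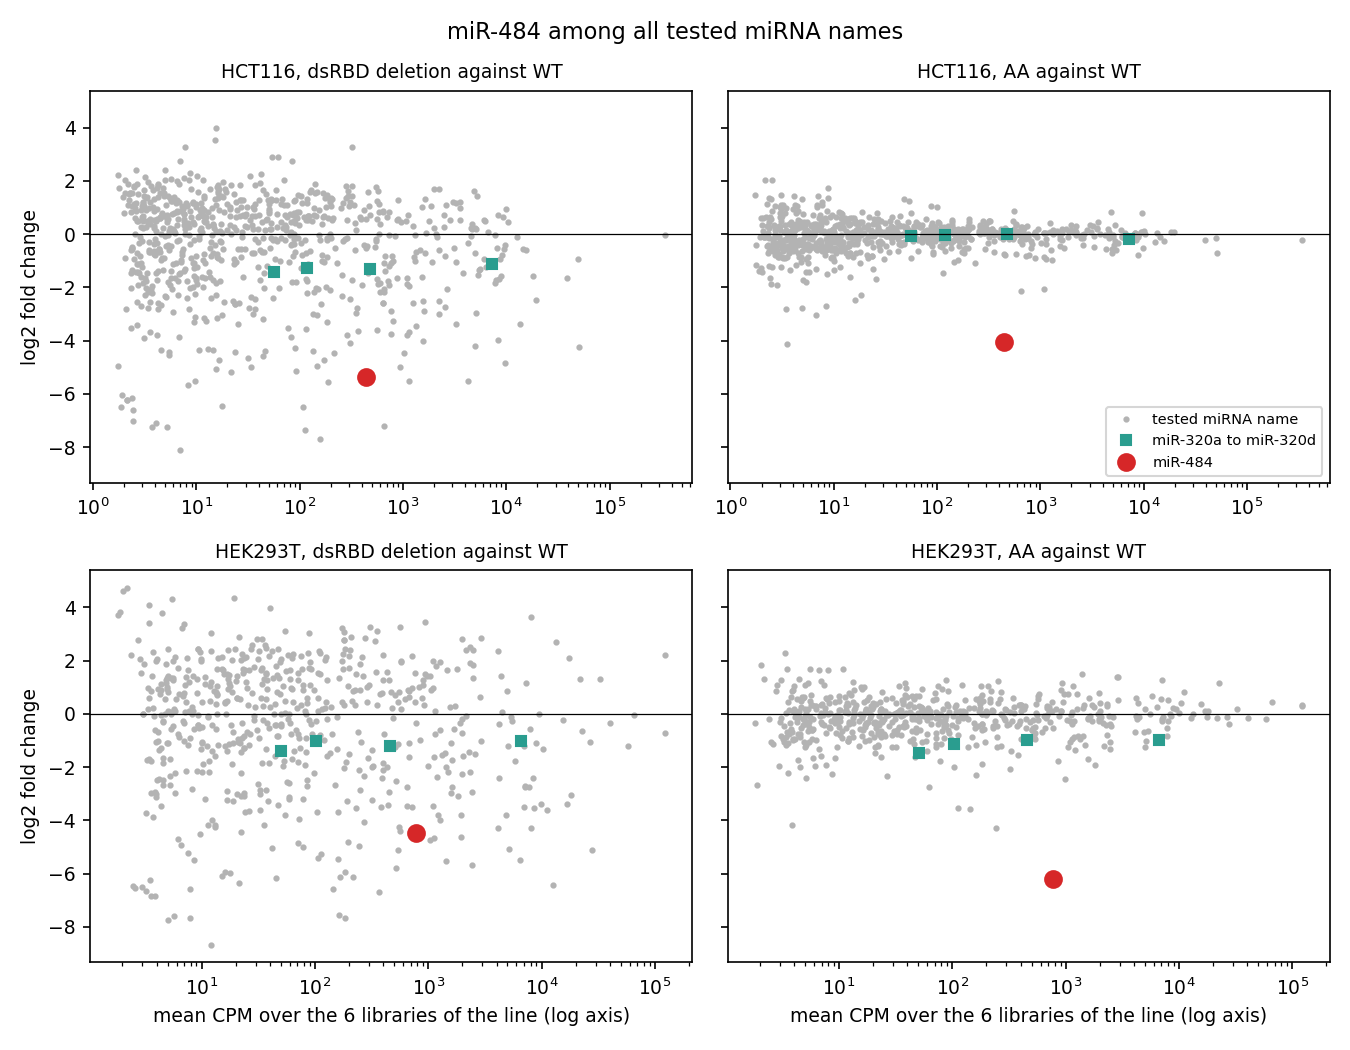
Log2 fold change against WT (vertical) and mean CPM of the line (horizontal, log axis) for every tested name, with miR-484 as a red circle and miR-320a to miR-320d as green squares. With dsRBD deletion miR-484 sits within a broad band of falling names, and with AA it lies far below names of similar level.

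The names with the lowest values after deletion mostly had values nearer to 0 with AA. In HCT116, 50 of 795 names had a log2 fold change of −4 or lower with the deletion, and miR-484 was the only one of these 50 to reach −4 with AA. The median of the 50 with AA was −0.51, and the lowest of the others was −2.70. In HEK293T, 59 of 626 names reached −4 with the deletion and 2 of them also with AA, miR-484 and miR-99b-5p (−4.29), while the median of the 59 was −0.83. These counts share the WT libraries between the forms, so they describe the names and do not measure a relation between the comparisons.

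Set directly against each other, AA left more miR-484 than the deletion in HCT116 and less in HEK293T. The log2 fold change of AA against deletion was 1.29 ± 0.20 (SE) in HCT116, a 2.41-fold higher mean, and −1.71 ± 0.25 in HEK293T, a 3.34-fold lower mean. On the TMM scale, 40 of the 539 names tested in both lines (7.42%) had both AA libraries above both deletion libraries in HCT116 and below them in HEK293T, as miR-484 did. The opposite order was seen for 47 names (8.72%), and the same order in both lines for 163 (AA higher) and 151 (AA lower). Called both higher in HCT116 and lower in HEK293T were 19 names (3.53%). In the single lines 29.6% of names were called higher with AA than with the deletion and 26.9% lower in HCT116, and 36.1% and 36.9% in HEK293T. These shares with spike-in size factors were 59.9% and 1.76% in HCT116 and 51.4% and 15.8% in HEK293T.

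The difference between the lines was also read in a fit over all 12 libraries. In it the log2 fold change of miR-484 with the deletion was higher, that is nearer to 0, in HEK293T than in HCT116 by 1.205 ± 0.30 (SE), where the median name differed by 0.34, 22.4% of 844 names were called higher and 12.4% lower. With library totals as the scale it was 0.46 ± 0.33, and the median name then differed by −0.40. With AA the log2 fold change was lower in HEK293T, by −1.99 ± 0.29, where the median was −0.05, 2.96% of names were called lower and 0.948% higher. The WT level of miR-484 was higher in HEK293T by 0.78 ± 0.18 on the log2 TMM scale, with a median name at −0.39, 32% of names called higher and 41.2% lower. On the spike-in scale the sign of that WT difference turned, to −0.85, where the median name stood at −2.02.

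Over the 6 groups, on 1 scale for both lines, the mean levels ran from HEK293T WT (2085 ± 261 CPM) and HCT116 WT (1214 ± 192) to HEK293T deletion (107.9 ± 1.54), HCT116 AA (72.6 ± 0.635), HEK293T AA (30.7 ± 6.42) and HCT116 deletion (27.8 ± 4.69; SD, n = 2 each). The last pair overlapped, and no other neighbours in this order did. In CPM without TMM scaling the last pair changed places, at 36.8 ± 2.87 for HCT116 deletion and 27.8 ± 5.03 for HEK293T AA. Per 1000 spike-in reads, given next, the order between the lines differed more: HCT116 WT stood above HEK293T WT, HCT116 AA above HEK293T deletion and HCT116 deletion above HEK293T AA, with no overlap of neighbours.

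The spike-ins give a reference that does not rest on other miRNAs. Each library carried reads of 30 spike-in RNAs, and the sources used here do not say how much was added or when. HCT116 WT libraries held 327 and 326 reads of miR-484 per 1000 spike-in reads, AA libraries 14.8 and 14.2, and deletion libraries 2.47 and 2.25. HEK293T WT libraries held 214 and 143, deletion libraries 2.996 and 2.909, and AA libraries 1.85 and 1.08. On this scale the deletion left 0.723% of the WT level in HCT116 and 1.65% in HEK293T, and AA 4.44% and 0.819%. The groups of a line kept their order and did not overlap. By spike-in size factors the median name itself stood at −1.78 with the deletion and −0.63 with AA in HCT116 and at −1.53 and −0.58 in HEK293T.

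Used as separate references, all 30 spike-ins placed miR-484 below WT in the 4 comparisons with WT. The log2 ratios ran from −7.60 to −6.12 (HCT116 deletion), −6.53 to −3.84 (HCT116 AA), −7.53 to −4.71 (HEK293T deletion) and −8.15 to −6.04 (HEK293T AA). The excess of AA over deletion in HCT116 also held for all 30, from 1.07 to 3.33. The reverse order in HEK293T held for 23 of the 30, with ratios from −2.92 to 0.72 and non-overlapping libraries for 18. In HEK293T the order of the altered forms thus depends on the spike-in taken as reference.

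**Figure D3:**
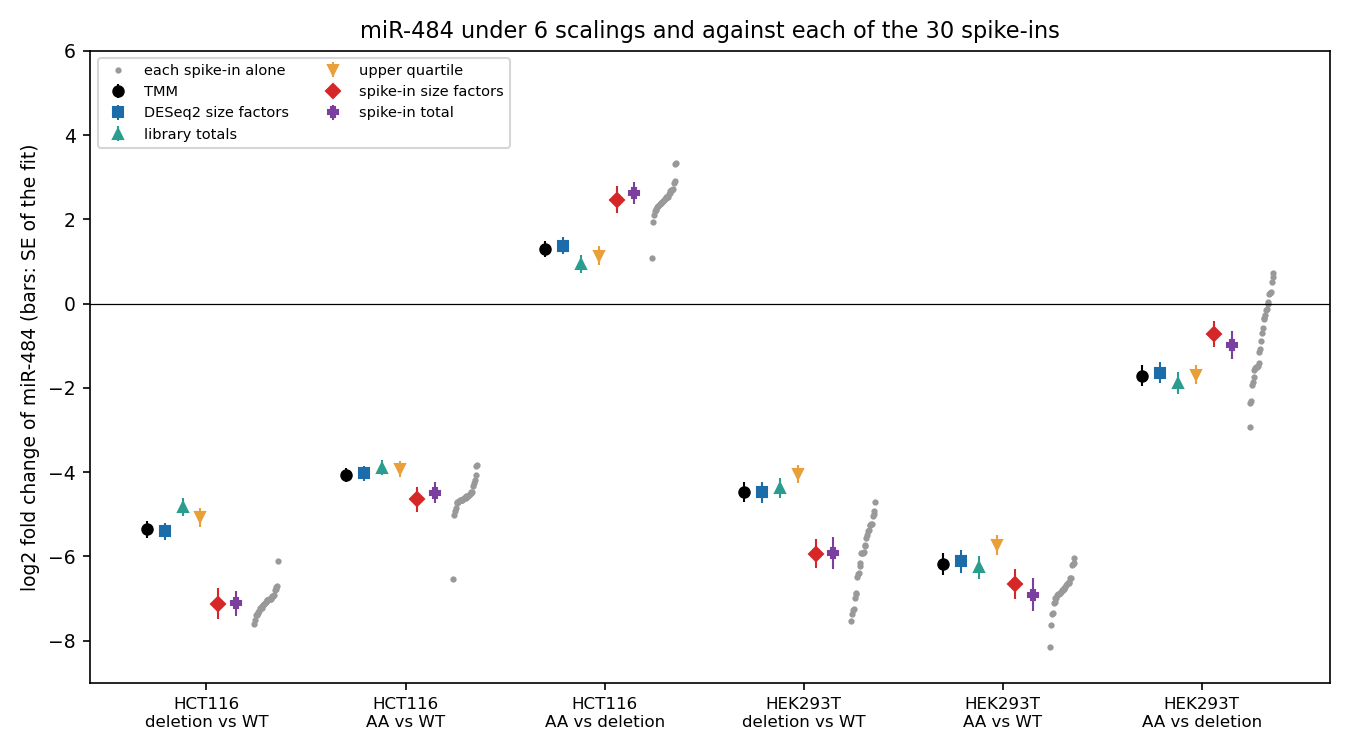
Log2 fold change of miR-484 (vertical, bars are the SE of the fit) in the 6 comparisons within a line under 6 scalings, with each of the 30 spike-ins alone as grey points. The comparisons with WT lie below 0 for every scaling and spike-in, and AA against deletion lies above 0 in HCT116 and mostly below 0 in HEK293T.

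The miR-320 family, to which miR-320a belongs, went down with miR-484 after dsRBD deletion but by much less. This list and its tests were chosen with earlier results of these data known. The sources used here do not show that the names other than miR-320a have capped precursors. Of its 5 names, miR-320e was too low to be tested (at most 6 reads in a library) and 4 were tested, all from near-identical sequences that could share reads. In HCT116 the deletion lowered 4 of 4, with a list median of −1.29. MiR-320a stood at 10167 and 8557 CPM with WT and 4360 and 4224 with the deletion, a log2 fold change of −1.13 ± 0.13 (SE; edgeR adjusted p = 2.0e-05). MiR-320b changed by −1.29 ± 0.20, miR-320c by −1.28 ± 0.24 and miR-320d by −1.42 ± 0.24. In HEK293T the deletion lowered 4 of 4 as well, with a median of −1.12 and miR-320a at −1.04 ± 0.21 (adjusted p = 0.0011). The backgrounds are the 34.1% and 39.6% of names called lower given above.

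With AA 0 of 4 passed the test in HCT116, where 6.16% of all names were lower, and the list median was −0.05. With spike-in size factors 2 of 4 were lower (list median −0.64), against 34% of all names (median −0.63). With the spike-in total 1 of 4 was lower, against 22.8% of all names. On the TMM scale miR-320a had 7689 and 8731 CPM with AA in HCT116, a log2 fold change of −0.19 ± 0.12 (edgeR adjusted p = 0.45). MiR-484 was 16.8-fold lower there. In HEK293T 4 of 4 were lower with AA, with a median of −1.06, against 15.2% of all names. MiR-320a had 5175 and 4955 CPM there, against 7734 and 12211 with WT, a log2 fold change of −0.98 ± 0.21 (adjusted p = 0.0085). These calls in HEK293T fell to 1 of 4 with upper-quartile scaling (list median −0.62). There 6.55% of all names were lower, and the median of all names was 0.34. Between the altered forms, 4 of 4 were higher with AA than with the deletion in HCT116 (median 1.28, background 29.6%), close to the 1.29 of miR-484 on that scale, and 0 of 4 passed in HEK293T (median −0.02). With spike-in size factors 4 of 4 were higher with AA in HEK293T, where 51.4% of all names were higher. The list median was then 0.969 and that of all names 0.970, while miR-484 stood at −0.72. The difference between the lines in the AA effect did not pass for any of the 4 (edgeR adjusted p = 0.058 for miR-320d, −1.29 ± 0.38, and 0.25 for miR-320a, −0.70 ± 0.30), where 2.96% of all names were lower. That count depended on the setting. It was 4 of 4 lower with library totals, where 8.41% of all names were lower and their median was −0.40. It was 3 with the spike-in total (5.81% of all names), 1 with upper-quartile factors (3.2%) and 0 with spike-in size factors (1.66%). DESeq2 gave 1, and leaving out the filter gave 2 of 5, with the shares of all names not given here.

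Set against miR-320a within a library, which needs no scaling, miR-484 was also lowest with the altered forms. HCT116 libraries held 13.3 and 12.7 reads of miR-484 per 100 reads of miR-320a with WT, 0.758 and 0.645 with the deletion, and 0.955 and 0.824 with AA. HEK293T libraries held 33.2 and 15.0 with WT, 2.06 and 1.99 with the deletion, and 0.652 and 0.507 with AA. The HEK293T WT pair differed most, since replicate 1 had more miR-484 and less miR-320a than replicate 2. The ratio was 18.5-fold and 14.6-fold lower with deletion and AA in HCT116, and 11.9-fold and 41.6-fold lower in HEK293T. AA lay 1.27-fold above the deletion in HCT116 and 3.49-fold below it in HEK293T, with no overlap of libraries.

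Other miRNAs that leave out a step of the usual pathway were fixed as further lists. MiR-451a, which is cut by Argonaute 2 in place of DICER, was called higher with the deletion on the TMM scale, from 85.1 and 79.5 to 155 and 217 CPM in HCT116 (1.19 ± 0.19 SE) and from 28.01 and 24.86 to 118 and 129 CPM in HEK293T (2.22 ± 0.23). On the spike-in scale its direction turned in HCT116, from 20.6 and 23.9 reads of miR-451a per 1000 spike-in reads with WT to 11.6 and 17.9 with the deletion (−0.59 ± 0.26 with spike-in size factors, adjusted p = 0.032). In HEK293T it went from 2.34 and 1.94 to 3.68 and 3.73 on that scale (0.77 ± 0.30, adjusted p = 0.030). With AA it did not pass in either line (0.11 ± 0.19 and −0.13 ± 0.25; edgeR adjusted p = 0.82 and 0.77). Mirtrons, hairpins freed by splicing and cut by DICER alone like miR-484, had 23 names listed in HCT116 and 15 tested, of which 6 were lower and 2 higher with the deletion (median −0.61) and 5 lower with AA (median −0.86). Over all names the shares were 34.1% lower and 28.1% higher with the deletion and 6.16% lower with AA. Apart from miR-877-5p and miR-877-3p, the mirtron names tested in HCT116 had means of 2.16 to 25.9 CPM. In the HCT116 deletion libraries 3 reads stood for 2.22 to 3.64 CPM, so calls on these names rest on few reads there. Several of the names are the 5p and 3p arms of 1 hairpin and are not independent. The spike-in size factors made 12 of the 15 lower with the deletion and 11 with AA, against 75.2% and 34% of all names. In HEK293T 4 were tested, of which 1 was higher with the deletion (35.9% of all names) and 1 lower with AA (15.2% of all names). Spike-in size factors gave 3 of the 4 lower with either form and 0 higher, where 61.7% of all names were lower with the deletion and 30.4% with AA. On the TMM scale, their most abundant name in these lines, miR-877-5p, did not pass with the deletion in HCT116 (0.15 ± 0.24) or HEK293T (0.01 ± 0.23), nor with AA in HCT116 (−0.66 ± 0.24), and was lower with AA in HEK293T (−1.02 ± 0.24; edgeR adjusted p = 0.012). MiR-877-5p was lower with spike-in size factors in all 4 comparisons, by −1.61 with the deletion and −1.22 with AA in HCT116 and by −1.44 and −1.49 in HEK293T. The medians of all names in these comparisons were −1.78, −0.63, −1.53 and −0.58. MiR-877-3p was called higher with the deletion in HEK293T on the TMM scale (1.52 ± 0.27), but per 1000 spike-in reads it stood at 1.42 and 1.09 with WT and 1.29 and 1.38 with the deletion, which overlap (0.07 ± 0.32 with spike-in size factors).

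By the measure given next, the abundant miRNA whose profile lay nearest to that of miR-484 was miR-99b-5p. Likeness was measured as the root-mean-square difference of log2 CPM over the 12 libraries, each name centred on the mean of its line, among 190 other names of at least 100 CPM in both lines. The value was 0.98 for the nearest name, 1.72 for the sixth and 2.39 for the median name. The 6 nearest were miR-99b-5p (0.98), let-7e-5p (1.51), miR-3615 (1.60), miR-151a-5p (1.61), miR-324-3p (1.69) and miR-185-5p (1.72). All libraries are shared by these profiles, and let-7e-5p and miR-99b-5p come from 1 cluster in an intron of SPACA6 (chromosome 19, 51692618 to 51692639 for miR-99b-5p and 51692793 to 51692814 for let-7e-5p).

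MiR-99b-5p, a miR-100 family member, had 2631 and 2325 CPM with WT in HCT116, 157 and 199 with the deletion, and 606 and 596 with AA. In HEK293T it had 800 and 544 CPM with WT, 18.5 and 23.7 with the deletion, and 29.3 and 40.9 with AA. It was thus lower with the deletion than with AA in both lines, whereas miR-484 changed order. MiR-3615 (chromosome 17, 74748663 to 74748683) lies in an untranslated exon of its host SLC9A3R1 on the same strand, as miR-484 does in NDE1. It went from 301 and 277 CPM with WT to 8.26 and 9.86 with the deletion in HCT116 and to 141 and 137 with AA. In HEK293T it went from 262 and 210 CPM to 17.7 and 18.4 with the deletion and to 50.8 and 68.1 with AA.

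On the TMM scale, the order of AA and deletion seen for miR-484 in HEK293T was also that of miR-151a-5p and miR-324-3p. Their log2 fold changes of AA against deletion were 0.81 and 1.12 in HCT116 and −0.49 and −0.73 in HEK293T. With spike-in size factors the HEK293T values turned to 0.49 ± 0.25 and 0.23 ± 0.26, while that of miR-484 was −0.72. The median of all names was then 0.97, so each of these stayed below the typical name. MiR-151a-5p may share reads with miR-151b. The other 4 names were higher with AA than with the deletion in HEK293T, by 0.57 (miR-185-5p) to 1.73 (let-7e-5p). The seeds of the printed miRNAs had 1 (miR-99b-5p), 3 (let-7e-5p), 2 (miR-3615) and 4 (miR-320b) of 7 bases in place with that of miR-484.

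**Figure D4:**
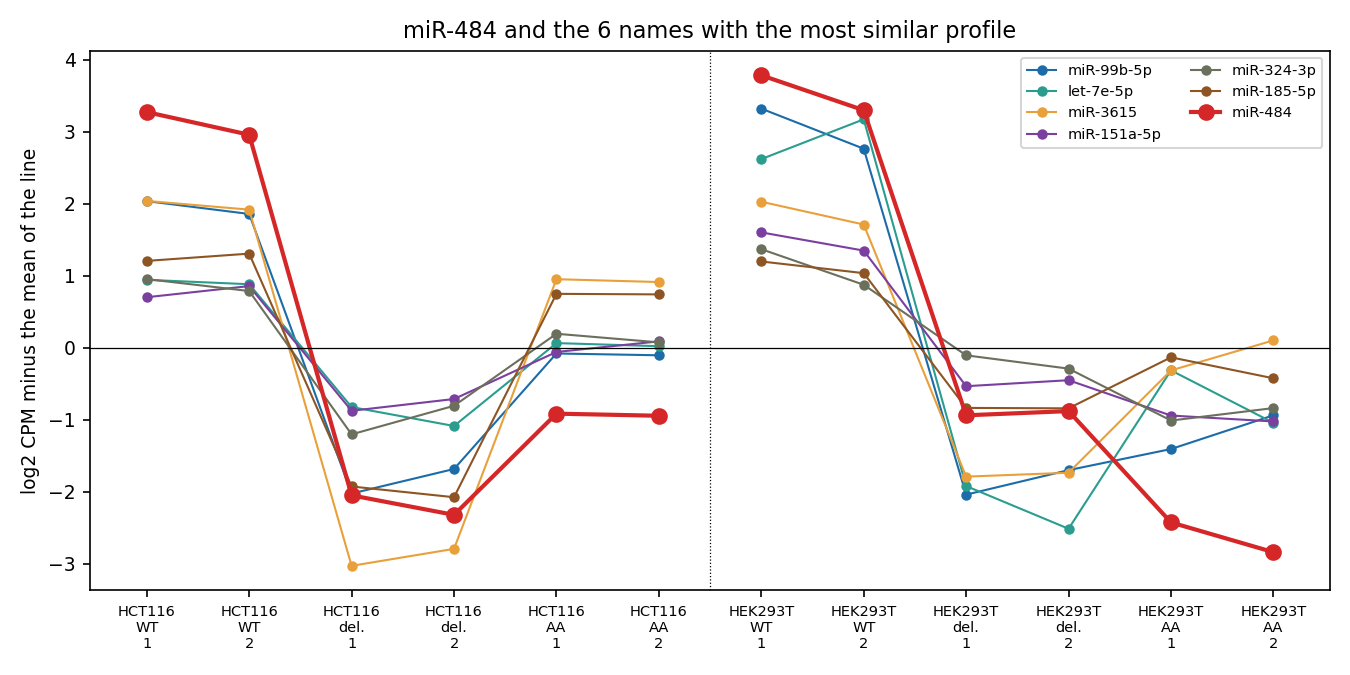
Log2 CPM minus the mean of the line (vertical) in each of the 12 libraries (horizontal) for miR-484 (red, thick) and the 6 names with the smallest root-mean-square difference from it; lines only join the points of a name. MiR-484 has the lowest values of the 7 in both AA groups.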

How the data were processed

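The deposited tables hold raw read counts, 1 table per library, for each miRNA name (1854 in HCT116, 1611 in HEK293T) and 30 spike-ins. The authors used cutadapt, BWA and bedtools with the builds hg38 and mm10, per the submitters' processing notes; the sources used here give no versions, roles or miRNA annotation. Counts were fitted per line over 6 libraries (all 12 for differences between lines) in R 4.3.3 with edgeR 4.0.16: filterByExpr (minimum count 10), TMM, glmQLFit on group means, two-sided glmQLFTest, Benjamini-Hochberg over all names, called at 0.05. Spike-ins, 0.272% to 3.54% of reads, stayed out of library sizes. The SE is the log2 fold change divided by the square root of F. DESeq2 1.42.0 was an alternative. Python 3.11.15, SciPy 1.17.1, ViennaRNA 2.7.2 and matplotlib 3.10.9 were used for the rest, RefSeq for sequences and GENCODE 29 for annotation.

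On simulated counts for the deletion against WT, a change of 4 on the log2 scale was recovered for 98.0% of 49 changed names in HCT116 (766 names run) and 100% of 48 in HEK293T (594). A change of 1 was recovered for 69.3% of 75 names and 77.8% of 72. Of unchanged names, 1.40% and 1.75% were called. For the line difference in the deletion effect, 38.2% of 68 changes of 1 and 76.1% of 71 changes of 2 were recovered. A name that did not pass may thus still have changed by such amounts. Replicate libraries of every group differed by more than sampling noise (chi-square per degree of freedom 12.6 to 99.9). Differences between equally numbered replicates correlated at −0.0910 to 0.151 across groups, so equal numbers were not taken as pairs.

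MiR-484, the lists (miR-320a to miR-320e; mirtrons; miR-451a) and the tests were chosen with earlier results of these data known. Named miRNAs were the list names, the 6 most like miR-484, up to 4 larger falls of at least 100 CPM per comparison with WT, names with the same seed, the neighbours in WT level and the next smaller falls. The last were added after the data were seen.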

Additional observations from a re-analysis of the deposited data

Results flagged for a closer look

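AA left more miR-484 than the dsRBD deletion in HCT116 (log2 fold change 1.29) and less in HEK293T (−1.71), with every AA library above every deletion library in 1 line and below in the other. This opposite order was not itself tested. In HEK293T it shrank to −0.72 with spike-in size factors, and against single spike-ins it held for 23 of 30, turned for 7 and had non-overlapping libraries for 18.

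In the fit over all 12 libraries, the effect of the deletion differed between the lines by the interaction test in edgeR for miR-451a, by 1.36 ± 0.30 (SE; adjusted p = 0.0010), and for miR-877-3p, by 1.38 ± 0.38 (adjusted p = 0.0066). In that fit the median name differed by 0.34 and 22.4% of 844 names were called higher. In the separate fits of each line, on another scale, the log2 fold changes were 1.19 in HCT116 and 2.22 in HEK293T for miR-451a, and 0.45 (not called) and 1.52 for miR-877-3p. With library totals the differences were 0.62 (adjusted p = 0.16) and 0.67 (adjusted p = 0.20), past the threshold for neither. By TMM, 3 of 14 mirtron names in the fit over all 12 libraries were called higher. Besides miR-877-3p these were miR-1226-3p (6.29 ± 0.93, edgeR adjusted p = 1.2e-05) and miR-1228-3p (5.90 ± 1.81, adjusted p = 0.014). Their means over all 12 libraries were 15.2 and 4.62 CPM. MiR-1228-3p was too low to be tested in the HEK293T fit. Its mean was 8.34 CPM in HCT116, and its WT log2 fold change, HEK293T against HCT116, was −4.06. It thus entered the fit over all 12 libraries through HCT116, and its call does not show a difference between the lines. MiR-877-5p, the other arm of the miR-877-3p hairpin, differed by 0.17 ± 0.34 (edgeR adjusted p = 0.75).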

How the results depend on the processing

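Under other settings 163 values moved by less than the spread between replicates or kept their count within 1.5 times, 30 moved further and 2 turned their sign. MiR-484 was below WT in all of these settings. Its order of AA and deletion also kept its direction in them, but in HEK293T it turned with 7 of the 30 spike-ins taken alone. With spike-in size factors the log2 fold change of miR-484 from WT in HCT116 was −7.12 for deletion and −4.65 for AA, and in HEK293T −5.94 and −6.66. AA against deletion was then 2.47 and −0.72. With the spike-in total these 6 values were −7.12, −4.49, −5.92, −6.91, 2.62 and −0.99. The WT difference between lines turned to −0.85 and −0.87 on these scales and was 1.23 with upper-quartile factors. Upper-quartile factors gave −4.04 (deletion) and −5.73 (AA) in HEK293T. Library totals gave −4.83 (deletion) and 0.94 (AA against deletion) in HCT116 and 0.46 for the line difference in the deletion effect. Without a filter AA against deletion in HCT116 was 1.53. By the geometric mean of spike-ins HCT116 AA was −4.60, against −4.49 by their sum. The cause of these shifts was not tested.

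Leaving out 1 library in turn gave −5.62 to −5.30 (HCT116 deletion), −4.22 to −3.91 (AA) and 1.23 to 1.55 (AA against deletion), and −4.84 to −4.25, −6.51 to −5.92 and −1.95 to −1.40 in HEK293T. The WT difference between lines ran from 0.59 to 0.95, and the line differences from 0.95 to 1.44 (deletion) and −2.26 to −1.77 (AA). A lone library is assumed to vary like the other groups. With a replicate block, which the labels do not support as a pairing, the 6 values were −5.34, −4.06, 1.28, −4.46, −6.21 and −1.75, and the counts of miR-320 names called were the same.

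For the miR-320 names, AA in HCT116 called 0 by TMM, 2 lower with spike-in size factors and 1 lower with the spike-in total. The shares of all names called lower were 6.16%, 34% and 22.8%. AA in HEK293T called 4 lower by TMM and 1 lower with upper-quartile factors, against 15.2% and 6.55% of all names. AA against deletion in HEK293T called 0 by TMM, 4 higher with spike-in size factors and 2 higher with the spike-in total. The shares of all names called higher were 36.1%, 51.4% and 46.2%. Of the 6 names most like miR-484, 3 were among the first 6 by Pearson correlation. By correlation miR-744-5p held place 1 (0.964), miR-99b-5p place 4 (0.928) and miR-320a place 6 (0.817). On the TMM scale miR-744-5p had a log2 fold change of AA against deletion of 0.76 in HCT116 and −0.78 in HEK293T.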
